A study of Mus musculus with 24 samples.

Results

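The gene expression of TM3 cells 4 h after exposure to nanosecond pulsed electric fields (nsPEF) was compared with that of sham cells handled alike and harvested at the same time. TM3 is an established mouse line of Leydig cells, the interstitial cells of the testis that make testosterone. Members were chosen by the sample titles, and 8 of the 24 arrays of the series belonged to the comparison, 4 of nsPEF-exposed and 4 of sham cells. Exposed suspensions of 200 µl in cuvettes received 80 pulses of 60 ns with an amplitude of 5.5 kV, a field of 14 kV/cm, delivered at 26.4 pulses per minute over 180 s, while sham suspensions received none. Both groups were cells of the same line with no other agent or genetic change described. They were detached, washed, resuspended in Annexin V binding buffer and strained before the exposure, and stayed in the cuvette only for its duration. The study describes the time from exposure to harvest as standard culture. RNA came from frozen pellets of cells harvested 4 h after exposure. The remaining 16 arrays held sham and exposed cells at 0 and 24 h. For the comparison at 4 h they entered the fit to estimate the spread between replicates. They also counted in the choice of probes to test and of the probe that stands for a gene. The differences at 4 h were set against those of the other times as well.

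Pulses this short charge membranes inside the cell as well as the plasma membrane, and they are known for opening small pores through which ions leak. Leak of ions, loss of amino acids or stress of the endoplasmic reticulum can activate kinases that phosphorylate the translation factor eIF2 alpha. Translation of most messengers then slows, the transcription factor ATF4 is made, and ATF4 with its partner CHOP switches on genes of the integrated stress response. Cells that divide carry the messengers of mitosis in a wave that peaks in late G2, and those messengers fall when cells leave or delay the cycle.

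The values were log2 intensities of single Agilent probes with the 75th percentile of the array subtracted, so that 0 is the level of the 75th percentile and a difference of 1 is a doubling. A probe was tested by limma where the scanner software had marked it well above background on at least 2 of 4 arrays of any group, and it was called at a Benjamini-Hochberg adjusted p under 0.05 over the 37687 probes tested. In all, 1312 probes were called (3.48%), 656 higher and 656 lower. Of these, 855 were among the 26955 probes that stood well above background on all 8 arrays, with 287 higher (1.06%) and 568 lower (2.11%). Taken as 1 probe per gene, 133 of 13111 such genes rose (1.01%) and 402 fell (3.07%). These 13111 genes are called the measured genes here, and every count in a gene list is to be read against those shares. The lists were chosen with earlier results of these data known, so no such count is a test of a list. The median difference over all measured genes was -0.033. The falls were small, with a median of -0.24 and a largest of -0.68, while the rises had a median of 0.59, and all 22 called genes that changed by more than 1 were higher. All 4 exposed arrays lay on 1 side of all 4 sham arrays in 489 of the 535 called genes (91.4%) and in 15.4% of all measured genes.

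The 8 arrays lay on 1 slide, with the sham samples on the first row of arrays and the exposed samples on the second, so treatment and place on the slide cannot be told apart. The exposed arrays were dimmer, with 75th percentiles between 363 and 434 intensity units against 455, 457, 473 and 787 in sham, and the exact two-sided permutation p was 0.0286, the smallest that 4 against 4 can give. The probes well above background made up 53.9% ± 2.15 (SD, n = 4) of the exposed arrays and 59.5% ± 1.90 of the sham arrays (exact permutation p = 0.0286). Spots marked as not uniform numbered 262.5 ± 70.2 on the exposed and 66.5 ± 9.8 on the sham arrays, with the same exact p of 0.0286. Negative control spots stood at -6.77 ± 0.21 on the exposed and -7.74 ± 0.23 on the sham arrays on the scaled log2 values, again with an exact p of 0.0286. The part of these array properties in the differences between genes was not tested. Each mean rests on 4 arrays a group. The limma standard errors and p-values use a spread between replicates estimated over all 24 arrays, and the exact permutation p only these 8.

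The sign of a difference followed the brightness of the probe. Among probes well above background on all 8 arrays, the 1034 dimmest, at -4 or lower in sham, had a median difference of 0.44, and 88 of them were called higher and 0 lower. At sham levels between 0 and 1 the median was -0.056, with 6 probes called higher and 103 lower, and above 4 it was 0.037, with 14 higher and 8 lower. The sign also followed the row of the spot on the array. In the first 48 of the 384 rows, 61 such probes were called higher and 15 lower, whereas in rows 193 to 240, 17 were called higher and 194 lower. Among the 7979 measured genes at or above the 75th percentile in sham, 29 rose and 279 fell. Direction also depended on the scaling. The called probes on all 8 arrays were 33.6% higher here, 16.2% higher after quantile normalization, 19.3% in the deposited log2 values, 44.7% after normexp background correction, 71.9% with a percentile taken only over probes measured on all 24 arrays, and 99.7% after scaling on the spike-in probes, which added 0.18 to every difference.

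**Figure D1:**
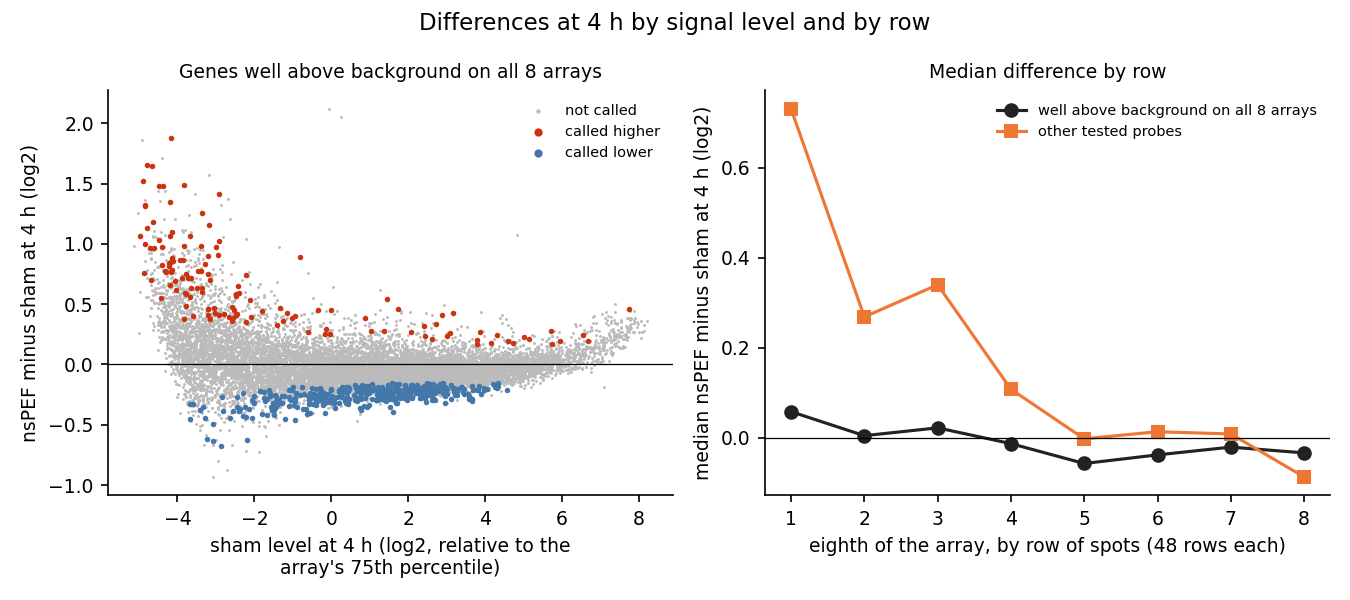
Left, each measured gene by its sham level at 4 h (log2, with 0 at the 75th percentile, x axis) and its difference, nsPEF minus sham (log2, y axis), with called genes in colour. Right, the median difference (log2) in each eighth of the array by row of spots, for probes well above background on all 8 arrays and for other tested probes. The dimmest genes lie above 0, and the other tested probes have a median of 0.73 in the first eighth and -0.087 in the last.

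Chac1, Trib3, Gadd45a, Nupr1 and Gars, genes of the integrated stress response, rose. Of 45 measured members, 5 rose and 0 fell, their median difference was 0.11, and 36 of the 45 were above 0. The list was strongest among its factors and regulators, of which 4 of 14 rose with a median of 0.15, while 0 of 19 genes of amino acid synthesis and transport were called (median 0.089) and 1 of 12 tRNA synthetases was (median 0.039). The median of the list in each array was taken relative to the mean of the sham arrays for each gene. It was between -0.0018 and 0.018 in the 4 sham arrays and between 0.081 and 0.14 in the 4 exposed arrays, so the groups did not overlap. This was not particular to the list. Groups were also apart for DNA repair, immediate early genes, p53 targets, autophagy and lysosomes, and the cytosolic ribosome, among others. For p53 targets the medians were 0.0065 to 0.056 in sham and -0.062 to -0.014 after exposure. With only the 8 arrays in the fit, 0 of the 45 genes were called. That fit has fewer degrees of freedom, and the part of this was not tested. Leaving out the second replicate of both groups left 2 called, and scaling on the spike-in probes called 28.

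The promoters of these genes can carry the composite element that ATF4 binds with a C/EBP partner, whose core reads TGATGNAA. Promoter windows of 250 bases before to 50 after the gene start, from RefSeq on the build GRCm38.p6, were searched for those letters on both strands. The core was found in 4 of the 5 genes called (80%), in 13 of the 37 measured members that had a window (35.1%), and in 4.51% of all 27025 genes with a window. The matches of 3 called genes that lie before the gene start are given here, as these genes rose. Each is read on the strand of its gene, and capitals mark the match, here always in its reverse complement.
Chac1: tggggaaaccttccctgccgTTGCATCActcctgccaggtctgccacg
Nupr1: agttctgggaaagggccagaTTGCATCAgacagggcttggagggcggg
Gars: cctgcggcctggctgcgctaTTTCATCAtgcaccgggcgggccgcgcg
The Chac1 stretch is chr2:119351029-119351076 on the plus strand, and its match begins 193 bases before the gene start. The Nupr1 stretch is chr7:126625553-126625600 on the minus strand, with the match 110 bases before the start. The Gars stretch is chr6:55037951-55037998 on the plus strand, with the match 30 bases before the start. All 3 lie upstream of the annotated transcript. Such a match is a run of letters and not a measured site.

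Chac1, which degrades glutathione and is a classical target of ATF4, had the smallest adjusted p of the list. Its levels were 3.1, 3.24, 3.08 and 3.21 in the sham arrays and 3.78, 3.57, 3.47 and 3.52 in the exposed arrays. Every exposed array was above every sham array, and the difference was 0.43 ± 0.062 (SE, n = 4 per group), or 1.35-fold, with a limma adjusted p of 0.00173. Trib3, a pseudokinase that feeds back on ATF4 and CHOP, gave sham levels of 2.94, 2.96, 2.79 and 2.83 and exposed levels of 3.39, 3.40, 3.14 and 3.24. The groups did not overlap, and Trib3 rose by 0.41 ± 0.081, with an adjusted p of 0.0123. With only the 8 arrays of 4 h in the fit the adjusted p was 0.0661 for Chac1 and 0.0696 for Trib3.

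Gadd45a, a stress-induced inhibitor of growth that is also a target of p53, had lower levels, at -0.82, -1.05, -0.99 and -0.90 in sham and -0.51, -0.35, -0.69 and -0.61 after exposure. It rose by 0.40 ± 0.079 (adjusted p = 0.0124). Nupr1, a small chromatin protein of the stress response, was at 2.33, 2.39, 2.52 and 2.43 in sham and at 2.74, 2.78, 2.73 and 2.68 after exposure, a rise of 0.32 ± 0.067 (adjusted p = 0.0161). Gars, the glycyl-tRNA synthetase, was among the brightest members, with 6.73, 6.67, 6.71 and 6.55 in sham and 6.86, 6.84, 6.85 and 6.89 after exposure. Its rise of 0.19 ± 0.047 had an adjusted p of 0.0320. The 4 exposed arrays were the 4 highest for each of these 3 genes.

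The best known members of the pathway did not pass the test. Atf4 itself differed by 0.23 ± 0.10 (adjusted p = 0.20), Ddit3, which encodes CHOP, by 0.11 ± 0.063 (adjusted p = 0.31) and Ppp1r15a, which lets eIF2 alpha be dephosphorylated, by 0.16 ± 0.052 (adjusted p = 0.099). Asns, the asparagine synthetase, differed by 0.12 ± 0.066 (adjusted p = 0.32). Mthfd2, a mitochondrial enzyme of one-carbon metabolism, came nearest to the threshold among the amino acid genes, with 0.20 and an adjusted p of 0.062. Atf3, another stress factor, stood at -0.13 ± 0.12 (adjusted p = 0.58).

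The unfolded protein response of the endoplasmic reticulum, which shares the kinase PERK with the integrated stress response, was called in 1 of 28 measured genes, with a median difference of -0.019. The called gene was Sdf2l1, a component of a chaperone complex of the endoplasmic reticulum, which rose by 0.29 ± 0.062 (adjusted p = 0.0161). Its sham levels were -0.17, -0.25, -0.13 and 0.025 and its exposed levels 0.14, 0.18, 0.20 and 0.12. Hspa5, the main chaperone of that compartment, differed by 0.076 ± 0.083 (adjusted p = 0.63) and Xbp1 by -0.10 ± 0.054 (adjusted p = 0.29). Herpud1, a gene of protein degradation at the endoplasmic reticulum, was not called by its brighter probe and was called higher by a second probe, at 0.25 ± 0.063 (adjusted p = 0.0356).

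Other stress lists moved in single genes. Hmox1, the heme oxygenase and a target of NRF2, rose by 0.23 ± 0.061 (adjusted p = 0.0443), the only gene called among 31 of the antioxidant list, whose median was 0.030. Sqstm1, the autophagy receptor p62, rose by 0.28 ± 0.060 (adjusted p = 0.0169) and was the only gene called of 39 for autophagy and lysosomes, but its second probe, well above background on all 8 arrays, gave 0.093 (adjusted p = 0.52). In the heat shock list 1 of 23 measured genes was called, the transcription factor Hsf2, which fell by 0.25 ± 0.053 (adjusted p = 0.0166). None of 5 measured genes of metallothioneins and zinc transport was called by limma, with a smallest adjusted p of 0.27.

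**Figure D2:**
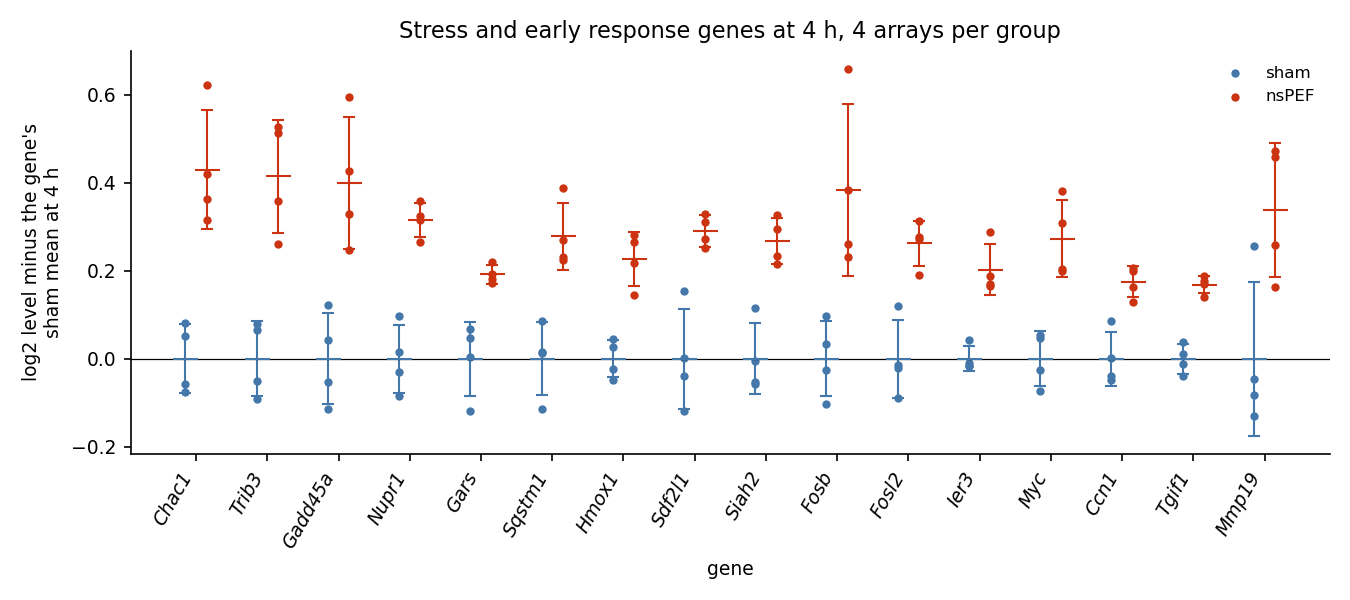
Stress and early response genes at 4 h. Each dot is 1 array, drawn as its log2 level minus the mean of the gene in the 4 sham arrays, with sham and nsPEF side by side (4 arrays per group). All genes drawn were called higher; the exposed arrays of Chac1, Trib3 and Gadd45a lie above all sham arrays.

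Immediate early genes, which answer growth factors and stress within minutes and usually return within hours, were mixed at 4 h. Of 40 measured members, 3 rose and 2 fell, and the median was 0.081 with 29 above 0. The rises numbered 1 without sham replicate 1, sham replicate 3 or nsPEF replicate 4, and with only the 8 arrays in the fit 0 members were called in either direction. Scaling on the spike-in probes called 17 higher and 0 lower. Fosl2, a subunit of the transcription factor AP-1, rose by 0.26 ± 0.049 (adjusted p = 0.00915), with sham levels of 3.07, 3.00, 3.07 and 3.21 and exposed levels of 3.40, 3.36, 3.36 and 3.28, whereas its second probe gave 0.20 (adjusted p = 0.35). Fosb, another AP-1 subunit, rose by 0.38 ± 0.097 (adjusted p = 0.0357) at a low level of about -2.5 in sham. Ier3, a stress-induced regulator of survival, rose by 0.20 ± 0.054 (adjusted p = 0.0440). The 2 that fell were Tob1, an antiproliferative factor of messenger decay, at -0.31 ± 0.057 (adjusted p = 0.00895), and Spred1, a brake on the MAP kinase cascade, at -0.23 ± 0.062 (adjusted p = 0.0492). Fos had levels of -1.01, -1.10, -1.23 and -1.03 in sham and -1.05, -0.85, -1.13 and -1.02 after exposure, which overlapped, and its difference was 0.079 ± 0.10 (adjusted p = 0.69). Jun differed by 0.0079 and Junb by 0.012, with adjusted p of 0.94 for both, and Egr1 by 0.20 ± 0.077 (adjusted p = 0.15).

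Myc, the growth-promoting transcription factor, rose. Its levels were 3.78, 3.83, 3.90 and 3.91 in sham and 4.16, 4.06, 4.24 and 4.06 after exposure, a difference of 0.27 ± 0.057 with an adjusted p of 0.0153, while a second Myc probe gave 0.19 and was not called (adjusted p = 0.38). Tgif1, a corepressor of SMAD proteins in TGF-beta signalling, rose by 0.17 ± 0.042 (adjusted p = 0.0343). A second Tgif1 probe in row 5 of the array was also called, at 0.47 ± 0.11 (adjusted p = 0.0240). Ccn1, a matrix protein and target of YAP, rose by 0.18 ± 0.044 (adjusted p = 0.0350).

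Genes of mitosis and the spindle lay lower in the exposed cells. Of 65 measured members, 7 fell and 0 rose, 59 of the 65 were below 0, and the median difference was -0.13 beside -0.033 over all measured genes. In each array the median of the list, relative to the sham mean of each gene, lay between -0.071 and 0.046 in sham and between -0.17 and -0.092 after exposure. The lowest sham array was the fourth, which also had the highest 75th percentile. The groups did not overlap, as in the other lists named above. Of the 7 that fell, 5 belong to the spindle and kinetochore and 2 to the regulators, Plk1 and Ccnf. The count depended on single arrays: 0 members were called without sham replicate 1, 3 without sham replicate 3, 1 without nsPEF replicate 3 and 4 without nsPEF replicate 4, while the median stayed between -0.15 and -0.11 whichever single array was left out. With only the 8 arrays in the fit, 0 were called. Scaling on the spike-in probes, which moved the median of all measured genes to 0.15, put the median of the list at 0.052 with 3 members called higher. The list thus lay below the median of all measured genes under both scalings, while its sign depended on the scaling. Its absolute change was not tested. With a percentile over probes measured on all 24 arrays its median was -0.078 and 0 members were called.

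Promoters of genes of late G2 and mitosis often carry the cell cycle homology region, whose letters are TTTGAA. In the same windows these letters were found on either strand in 6 of the 7 called genes (85.7%), in 38 of the 53 measured members with a window (71.7%), and in 20.2% of all 27025 genes. Both called genes whose match lies before the gene start are given, with the match in capitals.
Ccnf: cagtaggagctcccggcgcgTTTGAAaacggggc
Top2a: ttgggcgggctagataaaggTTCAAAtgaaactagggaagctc
The Ccnf stretch is chr17:24251410-24251443 on the minus strand of GRCm38.p6, with the match 14 bases before the start. The Top2a stretch is chr11:99024190-99024232 on the minus strand, with the reverse complement of the letters 23 bases before the start. Both lie upstream of the annotated transcript and are a description of sequence, not of binding.

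Plk1, the kinase that drives entry into mitosis, was at 2.67, 2.62, 2.59 and 2.61 in sham and at 2.4, 2.37, 2.35 and 2.43 after exposure. The groups did not overlap, and Plk1 fell by 0.23 ± 0.053 on the log2 scale (adjusted p = 0.0219). Ccnf, which encodes cyclin F, the substrate receptor of a ubiquitin ligase, fell by 0.21 ± 0.053 (adjusted p = 0.0365), while its second probe stood at 0.080 (adjusted p = 0.79). Cdca8, a member of the chromosomal passenger complex with Aurora B, fell by 0.21 ± 0.054 (adjusted p = 0.0366). Kif18b, a motor that shortens microtubules of the spindle, had the largest fall of the 7, at -0.31 ± 0.081 (adjusted p = 0.0393), with sham levels of 0.057, 0.051, -0.13 and -0.22 and exposed levels of -0.27, -0.29, -0.53 and -0.41. Cenpe, a kinetochore motor, fell by 0.17 ± 0.038 (adjusted p = 0.0173), and Hmmr, a spindle protein, by 0.22 ± 0.048 (adjusted p = 0.0176). Other Hmmr probes gave -0.19 and 0.22 and were not called. Top2a, the topoisomerase that untangles chromosomes, fell by 0.18 ± 0.044 (adjusted p = 0.0275), and its second probe was called too, at -0.25 (adjusted p = 0.0240). Cdk1 stood at -0.18 ± 0.057 (adjusted p = 0.085), Aurka at -0.14 ± 0.053 (adjusted p = 0.13), Ccnb1 at -0.14 ± 0.060 (adjusted p = 0.20) and Mki67 at -0.12 ± 0.040 (adjusted p = 0.10), none of them called.

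Regulators of G1 changed in both directions. Cdkn2d, which encodes the p19 inhibitor of CDK4 and CDK6, had levels of 0.91, 0.69, 0.75 and 0.71 in sham and 0.46, 0.29, 0.43 and 0.37 after exposure, and it fell by 0.38 ± 0.054 (adjusted p = 0.00168). Cdkn1b, which encodes the inhibitor p27, fell by 0.23 ± 0.052 (adjusted p = 0.0201). Ccnd3, the cyclin D3 gene, fell by 0.23 ± 0.046 (adjusted p = 0.0126), from 3.23, 3.31, 3.17 and 3.16 to 2.95, 3.01, 3.02 and 2.98, and its second probe fell by 0.21 (adjusted p = 0.0220). With Myc, these made 1 gene higher and 3 lower of 21 measured, and the median of the list was -0.011. Inhibitors of the cycle were thus among the genes that fell together with a cyclin.

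The DNA replication machinery gave 1 call of 50 measured genes, the polymerase subunit Pold1, which fell by 0.19 ± 0.050 (adjusted p = 0.0366). The list had a median of -0.082, with 46 of 50 below 0. None of 18 measured replication-dependent histone genes of the list was called (smallest adjusted p 0.069), and their median was -0.13. DNA repair gave 3 falls and 0 rises of 90 measured genes, with a median of -0.088 and 76 of 90 below 0, and with the spike-in scaling the median was 0.094 with 2 called higher and 0 lower. Only 1 member was called without sham replicate 3, 2 without sham replicate 1, sham replicate 2 or nsPEF replicate 3, 5 without nsPEF replicate 1, and 0 with only the 8 arrays in the fit. Chek2, the checkpoint kinase activated by double-strand breaks, had levels of -2.4, -2.41, -2.0 and -2.12 in sham and -2.58, -2.84, -2.50 and -2.74 after exposure, a fall of 0.44 ± 0.085 (adjusted p = 0.0121). Pms1, a mismatch repair protein, fell by 0.30 ± 0.064 (adjusted p = 0.0170). Rad50, a subunit of the complex that senses broken ends, fell by 0.19 ± 0.047 (adjusted p = 0.0311), and its second probe gave 0.043 (adjusted p = 0.91). Shares of 2.00% called lower for replication and 3.33% for repair stand beside the 3.07% of all measured genes. For mitosis 10.8% were called lower beside 3.07%, and for the integrated stress response 11.1% higher beside 1.01%. As the lists were chosen with earlier results of these data known, these shares are a description and not a test.

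Targets of p53 did not move together. Of 31 measured members, Gadd45a rose, and Ccng1 and Ppm1d fell, with a median over the list of -0.014. Ccng1, the cyclin G1 gene, was at 1.81, 1.73, 1.79 and 1.55 in sham and 1.37, 1.48, 1.43 and 1.31 after exposure, a fall of 0.32 ± 0.067 (adjusted p = 0.0156). Ppm1d, the phosphatase that ends the response, fell by 0.32 ± 0.081 (adjusted p = 0.0336). Cdkn1a, the p21 gene and the classical target, differed by 0.087 ± 0.077 (adjusted p = 0.54), and Mdm2 by 0.067 ± 0.063 (adjusted p = 0.57). In the list of the Bcl2 family and caspases 1 of 28 was called, the BH3-only gene Bmf, at -0.45 ± 0.12 (adjusted p = 0.0388), where sham and exposed arrays overlapped and a second probe gave 0.90 (adjusted p = 0.14).

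**Figure D3:**
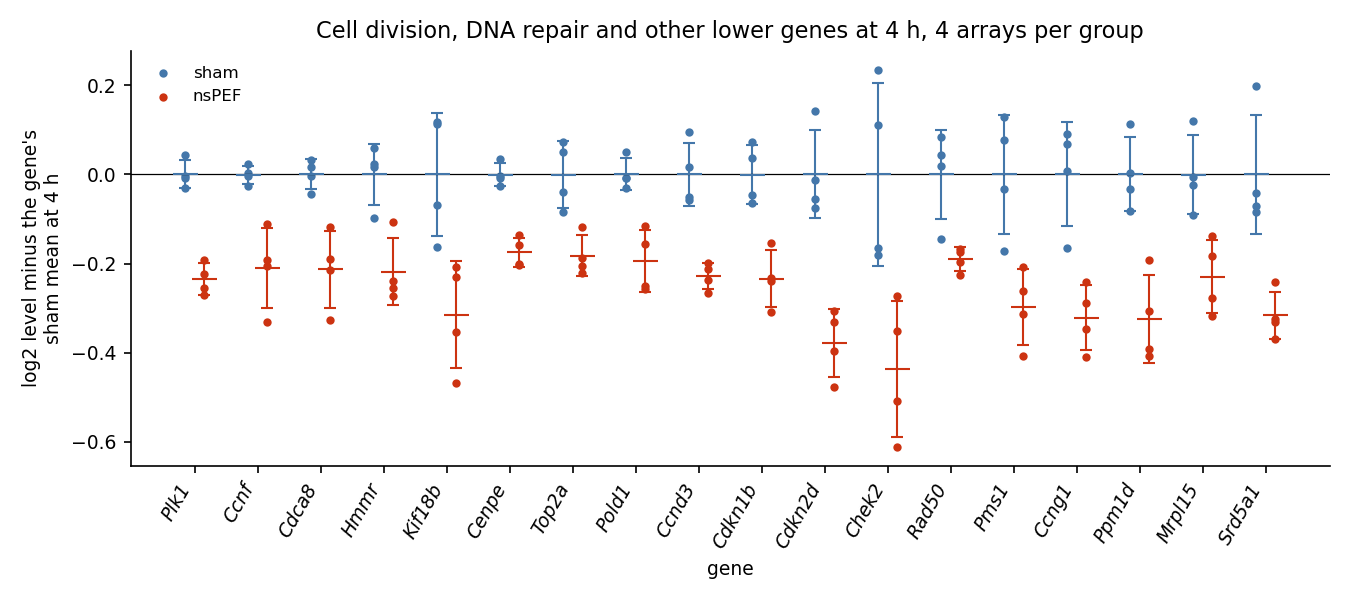
Genes of cell division, DNA repair, p53, the mitochondrial ribosome and steroid metabolism that were called lower at 4 h. Each dot is 1 array, drawn as its log2 level minus the mean of the gene in the 4 sham arrays, with sham and nsPEF side by side (4 arrays per group). Most falls lie between 0.17 and 0.44 on the log2 scale.

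Ribosomal proteins are encoded by separate sets of genes for the mitochondrial and the cytosolic ribosome. The 77 measured genes of the mitochondrial ribosome had a median of -0.062 with 65 below 0, and 3 fell, Mrpl15 by 0.23 ± 0.050 (adjusted p = 0.0175), Mrps27 by 0.20 ± 0.052 (adjusted p = 0.0410) and Mrpl49 by 0.17 ± 0.046 (adjusted p = 0.0420). No member was called without sham replicate 1, nsPEF replicate 3 or nsPEF replicate 4, or with only the 8 arrays in the fit, and 1 was called without sham replicate 2, sham replicate 3 or nsPEF replicate 2. Quantile normalization gave a median of -0.046, and scaling on the spike-in probes turned it to 0.12 with 3 members called higher and 0 lower. The 77 measured genes of the cytosolic ribosome had a median of 0.21 with 76 above 0, but none was called by limma (smallest adjusted p 0.12, and 43 with an unadjusted p under 0.05). Their median in the fourth sham array was -0.39 against 0.11 to 0.14 in the other sham arrays and 0.20 to 0.23 in the exposed arrays. Without the fourth sham array the median difference of the list was 0.097, and after quantile normalization it was -0.023. Scaling on the spike-in probes called 64 of the 77 higher. The 75 measured subunits of oxidative phosphorylation had a median of 0.0099, and 0 were called, with 9 at an unadjusted p under 0.05. Of 31 proteasome subunits and 45 nucleolar factors of ribosome biogenesis, 0 were called by limma in either list, with 0 and 2 genes at an unadjusted p under 0.05.

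**Figure D4:**
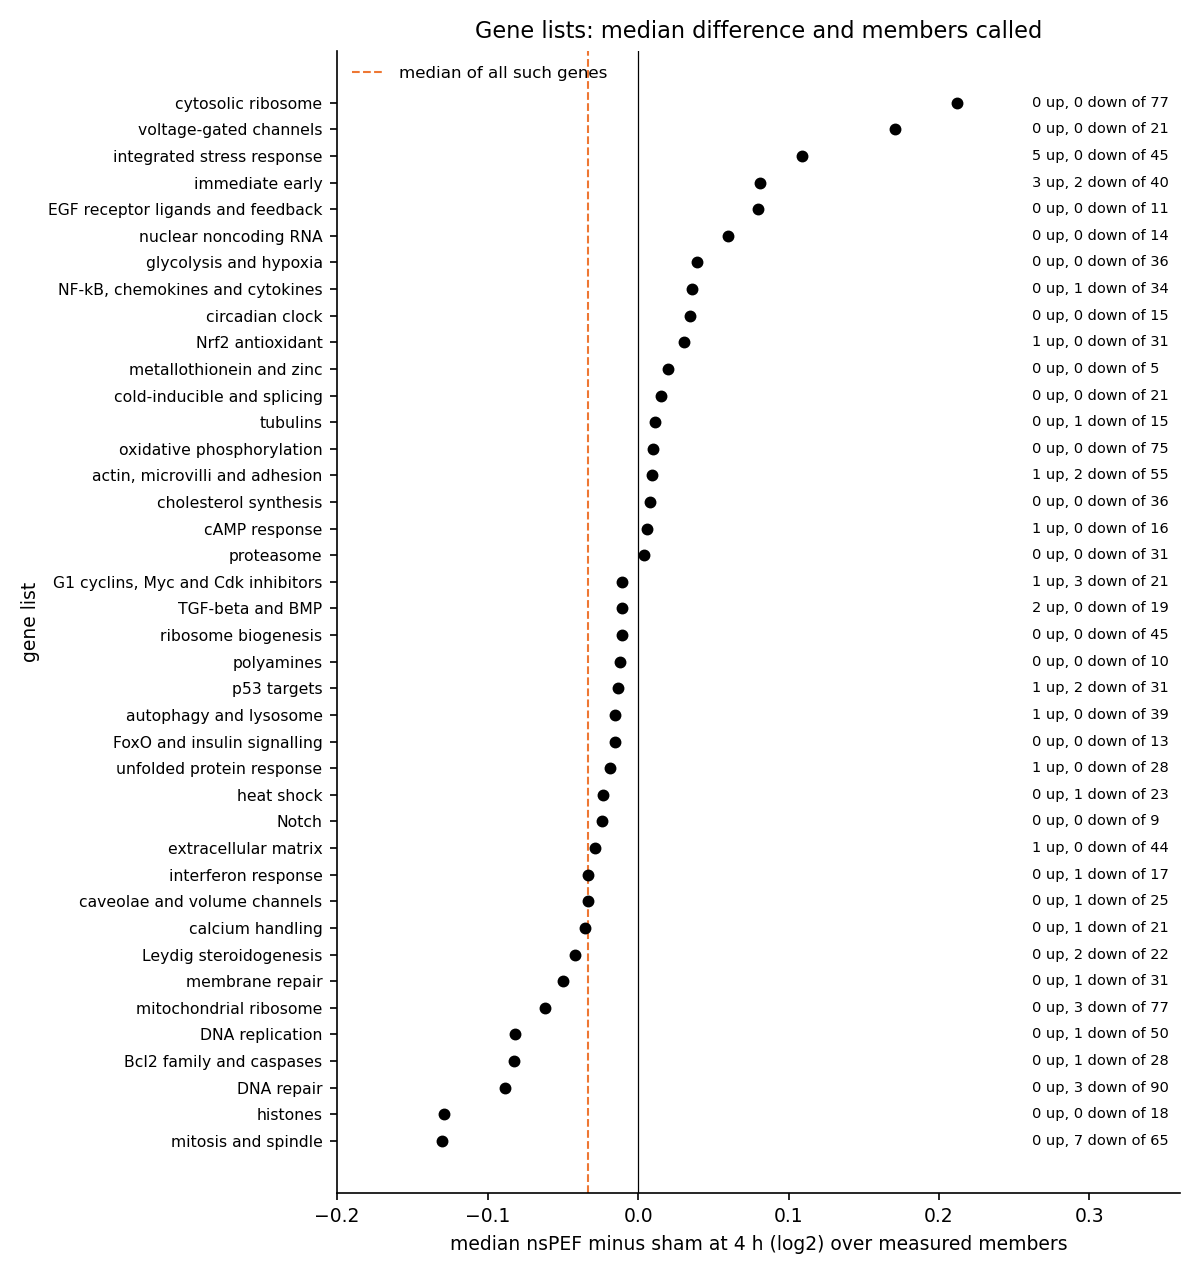
Median difference at 4 h, nsPEF minus sham (log2, x axis), over the measured members of each pathway list (y axis), with the number called in each direction. Lists of cell type markers are not drawn. The dashed line is the median of all measured genes, -0.033. Among the lists drawn, the cytosolic ribosome has the highest median, 0.21, with 0 genes called, and mitosis and spindle the lowest, -0.13, with 7 called lower.

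The label of the cells was checked by markers. Of 8 Leydig markers with a probe, Cyp17a1, Nr5a1 and Star stood well above background on all 8 arrays, at sham levels of 1.23, -2.48 and -2.79, whereas Cyp11a1, Hsd3b1, Hsd3b6, Hsd17b3 and Lhcgr were well above background on none. Stromal markers were bright, with 6 of 7 on all 8 arrays and Vim at 6.66 and Col1a2 at 6.31 in sham. Markers of other cell types also stood well above background on all 8 arrays, in 4 of 8 Sertoli and 3 of 5 peritubular myoid markers. The same held for 3 of 6 epithelial, 3 of 6 neural and 3 of 9 germ cell markers. Among them Acta2 (5.13), Wt1 (3.70), Krt18 (1.47) and Snap25 (1.45) were brighter in sham than Cyp17a1. Of 6 endothelial markers, 5 were well above background on no array. Of 7 macrophage markers, Csf1r, Cd14 and Cd68 were well above background on all 8 arrays, at sham levels of 1.56, 0.084 and -0.67, and differed between the groups by -0.095, 0.068 and -0.070 without being called. Ptprc, Adgre1 and Aif1 were above background on 1 array each. Lyz2, the macrophage lysozyme, was above background on 1 sham and 3 exposed arrays and was called higher (1.86 ± 0.45, adjusted p = 0.0276), and its part in the other results was not tested. No marker in these or the Sertoli, germ cell, peritubular myoid, epithelial and neural lists was called between the groups among those well above background on all 8 arrays. Among 22 measured genes of Leydig cell identity and steroid synthesis, 2 fell. Srd5a1, the steroid 5 alpha-reductase, was at 0.26, 0.019, -0.010 and -0.023 in sham and -0.26, -0.31, -0.27 and -0.18 after exposure, a fall of 0.32 ± 0.066 (adjusted p = 0.0146). Nr2f1, a nuclear receptor, fell by 0.24 ± 0.059 (adjusted p = 0.0298), with overlapping groups. Star, which carries cholesterol into mitochondria, differed by -0.22 ± 0.14 (adjusted p = 0.35), and Cyp17a1 by -0.0068 ± 0.16 (adjusted p = 0.99).

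Genes of the membrane, of calcium and of the cytoskeleton were called singly. Capn1, a calcium-activated protease of membrane repair, fell by 0.25 ± 0.065 (adjusted p = 0.0378) and was the only call of 31 for membrane repair. Stim2, a calcium sensor of the endoplasmic reticulum, fell by 0.22 ± 0.060 (adjusted p = 0.0443), 1 of 21 for calcium handling. Tube1, the epsilon-tubulin of centrioles, fell by 0.25 ± 0.059 (adjusted p = 0.0288), 1 of 15 tubulins. Of 55 genes of actin, microvilli and adhesion, Ccn1 rose. Slc9a3r1, which links membrane proteins to ezrin, and the integrin subunit Itgb5 fell by 0.21 ± 0.054 and 0.20 ± 0.053 (adjusted p of 0.0386 and 0.0438). A second Slc9a3r1 probe, well above background on all 8 arrays, gave -0.026 and was not called (limma adjusted p = 0.89). Second probes of Capn1, Stim2 and Tube1 gave -0.12, -0.29 and -0.26 and were not called either (limma adjusted p of 0.52, 0.56 and 0.11). Of 21 measured voltage-gated channel genes, 0 were called by limma (5 with an unadjusted p under 0.05), with a median of 0.17 at a median sham level of -1.74, and 38 of the 61 genes listed passed the filter for testing.

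Immune signalling also gave single calls. Nfkbie, an inhibitor of NF-kB, was at 0.47, 0.35, 0.41 and 0.53 in sham and 0.062, 0.18, 0.089 and 0.18 after exposure, and it fell by 0.31 ± 0.074 (adjusted p = 0.0259), the only call of 34 for NF-kB, chemokines and cytokines. Tap1, the peptide transporter of antigen presentation, fell by 0.37 ± 0.076 (adjusted p = 0.0143), the only call of 17 interferon-stimulated genes. None of the measured genes of cholesterol synthesis (36), glycolysis and hypoxia (36), EGF receptor signalling (11), FoxO and insulin signalling (13), Notch (9), polyamines (10), the circadian clock (15), cold-inducible and splicing regulators (21) or nuclear noncoding RNA (14) was called by limma. At an unadjusted p under 0.05 the counts in those lists were 7, 10, 1, 3, 1, 1, 2, 2 and 1. In the cAMP list 1 of 16 was called, Fosb again.

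Among measured genes called with the groups apart, those with the largest falls were mostly of low level and little known together. Pknox2, a homeodomain transcription factor, had levels of -2.82, -2.97, -2.86 and -2.81 in sham and -3.67, -3.58, -3.42 and -3.51 after exposure. Its fall of 0.68 ± 0.067 left 0.625 of the sham level and had an adjusted p of 4.29e-05. Rab3a, a small GTPase of regulated secretion, had the same adjusted p of 4.29e-05 with a fall of 0.42 ± 0.041, from -1.44, -1.51, -1.54 and -1.52 to -1.92, -2.0, -1.89 and -1.88. Both genes separated the groups by more than the spread within either, and a second Rab3a probe gave -0.57 with an adjusted p of 0.35. Syngr3, a protein of synaptic vesicles, fell by 0.63 ± 0.14 (adjusted p = 0.0173), and Slc43a2, a transporter of large neutral amino acids, by 0.62 ± 0.11 (adjusted p = 0.00653). The rest of the 15 largest such falls lay between 0.41 and 0.49, in Gm3325, Adgrg1, H2ac21, Oma1, Dusp19, AW554918, Chek2, Smarcal1, Parpbp, Dclk1 and Zfp862-ps. Of these, Oma1 is a stress-activated protease of the inner mitochondrial membrane, Smarcal1 an annealing helicase of stalled replication forks, and Parpbp an inhibitor of homologous recombination. Second probes of Dclk1, Dusp19, Parpbp, Slc43a2 and Smarcal1 were not called.

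The 15 largest rises among measured genes called with the groups apart all had mean sham levels below -2.8, near the dim end of the scale. They lay between 1.13 and 1.88 and were Olfr1375, Trpv6, Clmp, Sema6b, Il4i1, Ikzf4, Gm46220, Olfr740, Dmrtb1, 9130410C08Rik, Igfbp2, Klra1, 4930405J17Rik, Lman1l and Tmem89. Olfr1375, an odorant receptor gene in row 3 of the array, was at -4.27, -4.37, -4.01 and -3.98 in sham and -1.69, -1.25, -3.44 and -2.75 after exposure, so that the exposed arrays spread widely (difference 1.88 ± 0.45, adjusted p = 0.0276). Clmp, a cell adhesion molecule, was at -4.53, -4.66, -4.37 and -5.08 in sham and -3.48, -3.01, -2.77 and -2.82 after exposure, a rise of 1.64 ± 0.33 (adjusted p = 0.0124), but its second probe gave 0.38 (adjusted p = 0.55). Klra1, a receptor of natural killer cells, rose from -3.61, -3.43, -3.52 and -2.93 to -2.49, -2.29, -1.91 and -1.77 (1.26 ± 0.21, adjusted p = 0.00450), and it was called in 27 of 28 alternative analyses. Dmrtb1, a transcription factor of germ cells, had a second probe that was called too. That probe, however, was well above background on 0 sham arrays and 2 exposed arrays. A second Lman1l probe, well above background in all arrays of both groups, gave 0.030 and was not called (limma adjusted p = 0.92). Other Ikzf4 probes, none of them well above background in all arrays, gave -0.27, 0.063 and 2.33 and were not called. Spots of Olfr1375, Il4i1, Trpv6, Olfr740 and Dmrtb1 lay in rows 3, 5, 8, 8 and 11 and those of Gm46220 and Lman1l in row 35, within the first 48 rows where differences were shifted upward.

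Genes at or above the 75th percentile in sham were ranked apart, and this ranking was chosen after their values had been seen. The largest rises there were Dcaf12l2, Rn4.5s and Fgf23, at 0.54, 0.46 and 0.46, followed by Chac1 and Trib3. Fgf23, a hormone of phosphate balance, was at 1.66, 2.02, 1.84 and 1.39 in sham and 2.19, 2.04, 2.26 and 2.27 after exposure. Mmp19, a matrix metalloprotease, rose by 0.34 ± 0.088 (adjusted p = 0.0396) with overlapping groups, and Siah2, a ubiquitin ligase of the hypoxia response, by 0.27 ± 0.052 (adjusted p = 0.0124). The largest falls were those of Rtl8c at -0.39, Cdkn2d at -0.38, Zfp362 and 2610005L07Rik at -0.36, and Limk1, a kinase that inactivates cofilin and so stabilises actin filaments, at -0.36 ± 0.071 (adjusted p = 0.0131). Stambp, a deubiquitinase of endosomal sorting, fell by 0.35 ± 0.065 (adjusted p = 0.00934), Shox2, a homeodomain factor, by 0.32 ± 0.041 (adjusted p = 0.00106), and Mmachc, an enzyme of vitamin B12 processing, by 0.32 ± 0.056 (adjusted p = 0.00561). In Limk1 and Shox2 all exposed arrays were below all sham arrays.

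The 10732 tested probes that were not well above background on all 8 arrays gave 369 calls higher (3.44%) and 88 lower (0.82%). Of the 369, 286 were well above background on no sham array. The first 48 rows held 121 of them, or 32.8%, and 16.6% of all such probes tested, and the median difference of these probes was 0.73 in the first 48 rows and -0.087 in the last 48. When differences were centred within blocks of rows and classes of signal, 974 probes of any brightness were called, 334 of them higher, where the uncentred values had called 1312 with 656 higher. Of 111 probes followed over the alternative analyses, 84 kept their side of the threshold under this centring and 27 lost the call. The 111 are not the same as the genes named here, and some, such as Fos and B2m, were not called in the main fit. With probes of the middle rows alone, 1078 of the remaining probes were called, 471 of them higher. Where a probe was never above background in a group, the fold given is a bound, set by the higher of the lowest signal well above background on each array and the probe itself.

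Zfp750, a zinc finger transcription factor of epidermal differentiation, had the largest difference. Its spot lay in row 2, its sham levels were -7.65, -7.79, -7.62 and -8.09, none of them well above background, and it was at -2.82 and -1.51 on 2 exposed arrays, the spots on the other 2 having been marked as outliers and left out of the fit. In the exposed cells Zfp750 was higher by at least 12.8-fold, with an adjusted p of 0.00168. Tcp10c, in row 5, was at -7.57, -7.11, -6.46 and -7.78 in sham and -2.83, -2.37, -2.18 and -2.47 on all 4 exposed arrays, at least 10.4-fold higher (adjusted p = 0.00204). Lrrn2 in row 5 was at least 6.68-fold higher and Tnik in row 7 at least 6.34-fold higher, with 2 and 1 exposed arrays left out as marked. Tnik varied from -6.80 to 0.93 among the exposed arrays. Tnfsf8, a cytokine of the TNF family in row 127, was the only one of the 5 largest outside the first 8 rows, at least 5.43-fold higher, with exposed levels of -4.0, -1.55, -6.61 and -1.46.

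Other genes near the same edge behaved unevenly. Cacng5, a calcium channel subunit in row 4, was at least 2.31-fold higher (adjusted p = 0.0158) with 2 of 4 exposed arrays above background. Cntn4, a neural adhesion gene in row 6 with the fourth exposed array marked and left out, differed by 1.26 ± 0.68 and was not called (adjusted p = 0.29), and the mechanosensitive channel Piezo2, in row 170, differed by 0.051 ± 0.49 (adjusted p = 0.96). The reference genes B2m and Tubb5 differed by -0.0096 and 0.11, with adjusted p of 0.97 and 0.41.

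The largest falls of dim probes lay mostly at the other edge of the array. Duoxa1, a maturation factor of a dual oxidase, in row 383, was at -2.36, -3.15 and -3.0 on 3 sham arrays, the fourth being marked and left out, and between -6.48 and -5.97 on the exposed arrays, at least 5.48-fold lower (adjusted p = 0.0394), while a second Duoxa1 probe gave 1.34 (adjusted p = 0.15). Npy2r, a neuropeptide receptor gene in row 384, was at least 2.61-fold lower with the fourth sham array again left out, Gm14379 in row 384 at least 1.88-fold lower, and Ppef2 in row 330 at least 2.22-fold lower. Slamf6, in row 75, was measured in both groups and fell by 1.32 ± 0.27 (adjusted p = 0.0143). Of these 5, 3 lay in the last 2 rows.

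Each difference at 4 h was set against that at 0 h and at 24 h by an interaction term in the same fit, in which each time point had its own sham arrays and its own slide. Of the 13111 measured genes, 3 differed between 4 h and 0 h (0.0229%), namely Chac1, Pknox2 and 1700034P13Rik. Between 4 h and 24 h, 78 differed (0.595%). Many of the 78 were not called at 4 h. Kcnn1, for example, differed between nsPEF and sham by 0.087 at 4 h and by 1.59 at 24 h, where it was called. Chac1 differed between nsPEF and sham by -0.13 at 0 h and 0.021 at 24 h, neither called, and its difference at 4 h exceeded that at 0 h by 0.56 (adjusted p = 0.0353) and that at 24 h by 0.41 (adjusted p = 0.0464). Pknox2 stood at -0.12 at 0 h and -0.23 at 24 h, also not called, and its fall at 4 h was larger by 0.55 and 0.45 (interaction -0.55 and -0.45, adjusted p of 0.0471 and 0.0428). Chac1 and Pknox2 thus changed at 4 h beyond both other times.

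Ccn1, Ier3, Fosl2 and Myc rose at 4 h and lay below sham at 24 h, whereas Fosb, which also rose at 4 h, did not. Fosb stood at 0.25 at 24 h without being called (adjusted p = 0.13), and its interaction against 24 h was 0.13 (adjusted p = 0.70). Ccn1 was at 0.18 at 4 h and at -0.31 at 24 h, where it was called lower (adjusted p = 0.00114), and the differences differed by 0.49 (adjusted p = 0.0040). Ier3 went from 0.20 to -0.19, called lower at 24 h (adjusted p = 0.0461), with an interaction of 0.39 (adjusted p = 0.0339). Fosl2 and Myc had interactions of 0.38 and 0.37 against 24 h (adjusted p of 0.0275 and 0.0484), with values at 24 h of -0.12 and -0.10 that were not called. Nfkbie, Rab3a and Mrps27 were lower at 4 h than at 24 h by 0.48, 0.34 and 0.34 (interactions of -0.48, -0.34 and -0.34, adjusted p of 0.0484, 0.0241 and 0.0484). Trib3 differed by 0.038 at 0 h and 0.26 at 24 h, and neither interaction was called (adjusted p of 0.30 and 0.55). Plk1 was at -0.18 at 0 h and 0.071 at 24 h, and its interactions were not called either (adjusted p of 0.82 and 0.077). The median of the mitosis list was -0.045 at 0 h and -0.065 at 24 h, and that of the integrated stress response -0.017 and 0.079.

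**Figure D5:**
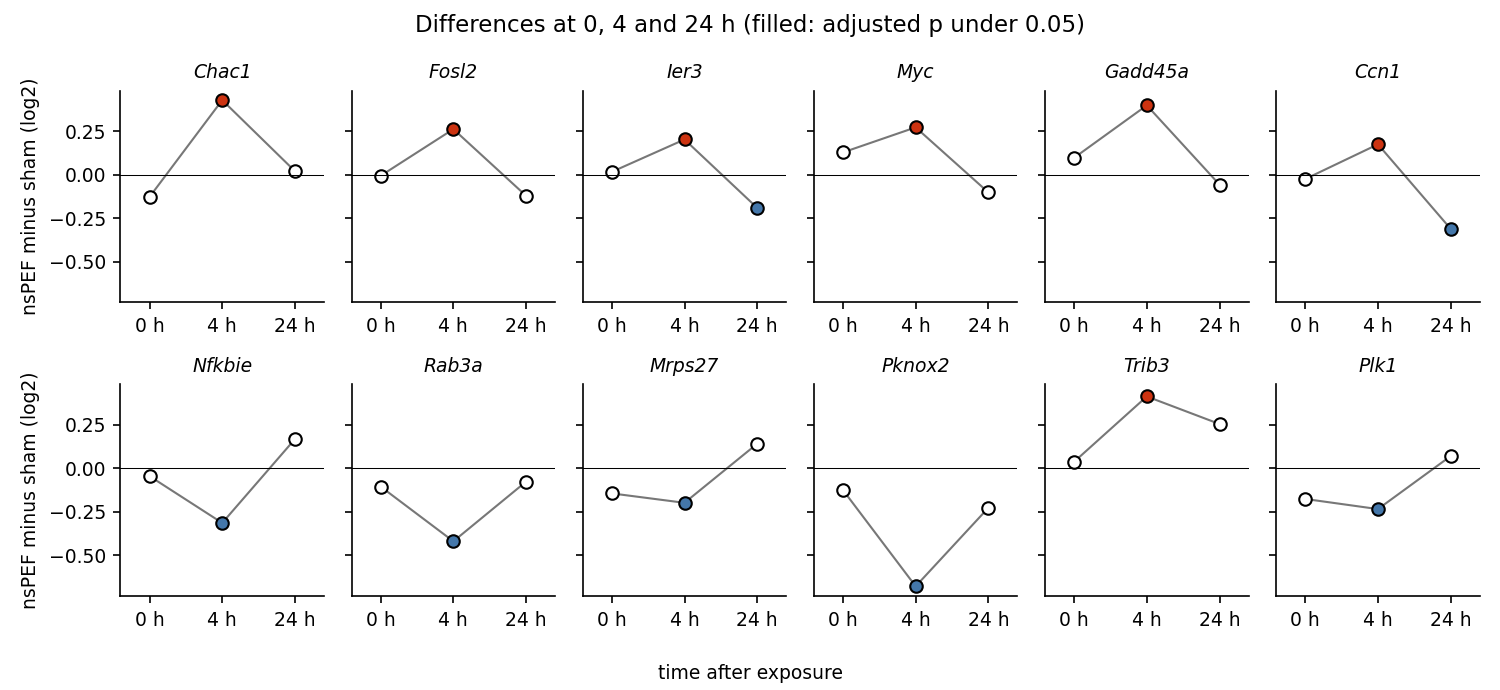
Difference between nsPEF and sham (log2, y axis) at 3 times after exposure (0, 4 and 24 h, x axis) for 12 genes, each point the mean of 4 arrays minus the mean of 4 sham arrays, filled where the adjusted p was under 0.05. Ccn1 goes from 0.18 at 4 h to -0.31 at 24 h, and Chac1 is called at 4 h alone.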

How the data were processed

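RNA of TM3 cells was hybridised in 1 colour to Agilent mouse arrays, and the authors read them with Agilent Feature Extraction 12.0. The deposited values were processed signals, a linear intensity for each of 62976 spots after subtraction of background, and, as a second deposited table, log2 values after a shift to the 75th percentile and centring of each probe on its median. The authors used GeneSpring and a two-way analysis of variance, and the genome build was not given in the sources used here. Here, log2 of the processed signal minus the 75th percentile over the 59305 target spots was used. Control spots and spots marked as outliers were left out, which left 789 values missing, no spot was saturated, and spots of a probe were averaged. R 4.3.3 and limma 3.58.1 fitted 6 group means on 24 arrays, and the contrast of nsPEF and sham at 4 h was tested with moderated statistics and Benjamini-Hochberg adjustment over 37687 probes at 0.05. A gene was represented by its probe with the highest mean over 24 arrays. Array properties were compared by exact permutation over the 8 arrays, two-sided. The scripts were tested on simulated data. Each number of replicates names a column on the slide, and the study's methods call the samples of a group biological replicates. The limma p-values measure the spread between replicates within groups, estimated over all 24 arrays.

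The members and gene lists were chosen with earlier results of these data known. Genes were named by rule: the 15 largest rises and 15 largest falls among measured genes called with groups apart, with their other probes, up to 4 genes of smallest adjusted p per list, the 5 largest called rises and falls of dimmer probes with the row of the spot, and 8 genes named by the study for its arrays. Other members of the lists were named as well known genes of their pathway. Of 1541 list entries, 1519 had a probe. Results of some genes are not reported here. Alternatives covered scaling, background, filters, marked spots, probes per gene, the model, array weights, the deposited log2 values, replicate blocks, rows and single arrays left out.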

Additional observations from a re-analysis of the deposited data

Results flagged for a closer look

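In 224 groups of 4 arrays, 13 had an array far from the other 3, where chance gives about 1 in 20, or 11.2. The values are the gap to the nearest array over the range of the group, and the critical value for 4 samples was passed by each. The far array was sham replicate 4 for the 75th percentile of intensity (0.948), Igfbp2 (0.938), Tubb5 (0.945), Rn4.5s (0.898) and Spred1 (0.872). It was sham replicate 2 for Tap1 (0.984), Ier3 (0.881) and Trpv6 (0.855), and sham replicate 1 for Srd5a1 (0.852) and Syngr3 (0.854). Among the exposed arrays it was nsPEF replicate 3 for AW554918 (0.918) and Slc9a3r1 (0.897), and replicate 4 for Gm46220 (0.932).

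The interaction term had an adjusted p under 0.05 in 10 of the genes followed over the alternative analyses. In these genes the difference between nsPEF and sham at 4 h differed from that at another time. Against 0 h these were Chac1 (0.558), Lrrn2 (3.65) and Pknox2 (-0.554). Against 24 h they were Lrrn2 (4.13), Ccn1 (0.487), Chac1 (0.409), Ier3 (0.394), Fosl2 (0.384) and Myc (0.375) in the direction of a rise, and Mrps27 (-0.340), Rab3a (-0.344), Pknox2 (-0.452) and Nfkbie (-0.483) in that of a fall. All are log2 differences of differences. Lrrn2 lies in row 5 of the array and was measured on 2 exposed arrays of 4 h.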

How the results depend on the processing

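The main count of called probes was 1312, of which 855 stood well above background on all 8 arrays with 33.6% of them higher. Quantile normalization gave 2229 and 1417 with 16.2% higher, scaling on the spike-in probes 5777 and 4500 with 99.7% higher, and normexp correction 3220 and 2171 with 44.7% higher. A percentile over probes measured on all 24 arrays put 71.9% higher, 1 probe per gene symbol 22.9%, and the deposited log2 values called 1288 such probes with 19.3% higher. Without a filter 10340 and 1824 probes were called. Only the 8 arrays of 4 h in the fit called 420 and 101, with 66.3% higher. That fit kept 25 of the 111 followed probes on their side of the threshold. Of those 420 probes 361 were higher, and 140 were among the main calls, or 10.7% of the 1312. The cause of these shifts was not tested. The fit of 8 arrays has fewer samples, and the part of this in its calls was not tested either. Leaving out single arrays or replicate numbers gave between 404 and 1362 called probes, between 203 and 862 on all 8 arrays, and between 33.8% and 44.8% higher. For single arrays the lowest counts were 600 without sham replicate 1, 708 without nsPEF replicate 3, 753 without sham replicate 3, 845 without sham replicate 2 and 872 without nsPEF replicate 4. The sign of a difference turned for Cenpe (0.0081) and Mrpl49 (0.0081) with spike-in scaling, and for H2ac21 (0.0552) with normexp correction.

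Sham and exposed arrays with the same number correlated in their deviations by 0.22, 0.088, -0.015 and 0.23, not all of them over 0.1. The labels do not tie a number to a shared culture or day, and pairs were not assumed. Sham replicates 1, 2 and 4 correlated best with their own number and sham replicate 3 with nsPEF replicate 1, at 0.089. With the number as a replicate block, 1315 probes were called, and 102 of the 111 followed probes kept their side of the threshold. With the replicate block and only the 8 arrays 0 probes and 0 on all 8 arrays were called by limma, and 6803 had an unadjusted p under 0.05. Signal over background limits the dim probes, whose folds are bounds.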

Other observations

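Large mean differences that were not called rested on single arrays, in 3 measured genes picked after their values were seen. Capn6, in row 263, stood at 0.066, -0.088, -0.063 and -0.12 in sham and at -0.026, -0.048, -0.18 and 8.53 after exposure. Dcaf15, in row 265, stood at 0.35, 0.39, 0.19 and 0.086 in sham and at 0.24, 0.22, -0.046 and 8.80 after exposure. In both the fourth exposed array alone was high, the mean difference was 2.12 and 2.05, and the adjusted p was 0.32 and 0.34. Grn, in row 84, stood at 3.20, 5.09, 5.69 and 5.32 in sham and at 6.30, 5.62, 5.57 and 6.10 after exposure, with the first sham array low.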
